A study of Mesocricetus auratus with 24 samples.

Results

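Liver RNA from hamsters fed a high-fat diet with Totum-070 (HFD-T070 5%) was compared with liver RNA from hamsters kept on a normal diet (ND), to measure the diet response that was present under the supplement. The comparison was chosen by group label and took 16 of the 24 libraries of the series, 8 HFD-T070 5% and 8 ND. The HFD-T070 5% hamsters received a diet rich in hydrogenated coconut oil, fructose and cholesterol, in which Totum-070, a polyphenol-rich blend of plant extracts, made up 5% of the weight. All were male golden Syrian hamsters, labelled wild type, 8 weeks old when the diets began and fasted before the livers were taken, with 1 library per hamster. Feeding lasted 12 weeks by the methods, whereas 6 weeks stand in the labels. Animals shared cages, 2 or 3 to each, and the labels do not give the cage, so libraries of a group may share one. Because no group received Totum-070 on the normal diet, the effects of the high-fat diet and of Totum-070 cannot be told apart in this comparison. The 8 libraries of the HFD group, which received the high-fat diet alone, are set beside it where they show how it differs.

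The liver takes up dietary cholesterol and fat, makes both itself, and lowers its own sterol synthesis when sterol is plentiful. It stores the excess as lipid droplets, exports it in lipoproteins and converts cholesterol to bile acids. Its resident macrophages, the Kupffer cells, and macrophages recruited from blood are known to clear lipid in fatty liver. Golden Syrian hamsters carry cholesterol in LDL to a degree closer to humans than mice do, which is why they are used for diet studies.

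The values are read counts per gene. The ND libraries held 15289624 to 20740364 counts each and the HFD-T070 5% libraries 16885735 to 18836505, and these totals did not differ beyond the spread between libraries (exact two-sided permutation test, p = 0.654, 0.654 after Benjamini–Hochberg adjustment over 5 measures). Counts scaled to a common library size with TMM normalization are given as CPM. Changes were tested with the quasi-likelihood test of edgeR in 1 fit over all 24 libraries, with Benjamini–Hochberg adjustment of the p-values over the 13134 of 22283 genes that passed the filter on low counts. Genes carry Ensembl identifiers alone. Symbols come from the study's list of 18 metabolic genes, so the liver label was not checked against hepatocyte markers, and most genes appear only in counts. At most of the genes described, the values of HFD replicate 1 were near those of the ND libraries, and HFD replicate 7 had the smallest total, 10789142. Neither enters the HFD-T070 5% or ND means, but both enter the estimate of the spread. Values of the HFD group are over its 8 libraries unless HFD replicate 1 is said to be left out, and are given without it as well where that changes a call.

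In livers of HFD-T070 5% hamsters, 2925 genes were upregulated and 2764 genes were downregulated relative to ND. Together these were 5689 genes, or 43.3% of the genes tested (22.3% higher and 21.0% lower). In bulk tissue, a change in the share of a cell type and a change of RNA within its cells cannot be told apart, which holds for every value below. The median absolute log2 fold change was 0.26 over all genes tested and 0.55 over the genes that changed. Before adjustment, 6728 genes had a p-value under 0.05. The 8 HFD-T070 5% libraries lay above all 8 ND libraries at 1415 genes (10.8% of those tested) and below all of them at 972 genes (7.40%).

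The large changes were mostly increases, except among the genes with 100 CPM or more. Of the 1397 genes that also differed by at least 1 on the log2 scale, 1125 were higher and 272 were lower under HFD-T070 5% (8.57% and 2.07% of the genes tested). These were 281 and 25 genes under 1 CPM, 572 and 104 genes at 1 to 10 CPM, 233 and 91 genes at 10 to 100 CPM, and 39 and 52 genes at 100 CPM or more. At a difference of at least 2 the numbers were 269 and 51, and at a difference of at least 3 they were 93 and 14. These numbers rest on the filter on low counts, which was set over all 24 libraries. At a difference of at least 1, the filter and fit on the 16 libraries alone gave 965 genes higher and 255 lower. Under 1 CPM these were 119 and 15 genes. Without the filter the numbers were 1355 and 464, with 506 and 218 under 1 CPM. The near balance over genes of any fold depended on a correction for library composition, and not on TMM alone. With DESeq2 size factors in place of TMM, 2923 genes were higher and 2778 were lower. Scaled by library totals alone, 5146 genes were higher and 907 were lower, and the median log2 fold change of all genes tested was 0.21 instead of −0.01. The counts by range of CPM were not repeated with this scaling.

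**Figure D1:**
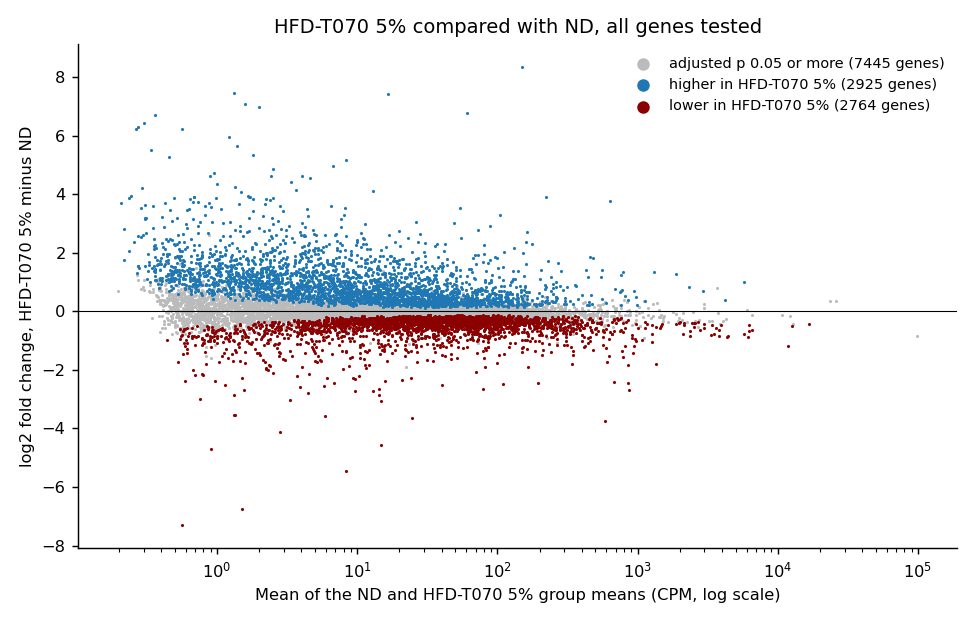
Each point is 1 of the 13134 genes tested. The horizontal axis gives the mean of the ND and HFD-T070 5% group means in CPM on a log scale, and the vertical axis the fitted log2 fold change of HFD-T070 5% minus ND. Blue and red points had an adjusted p-value under 0.05, and the points beyond 3 on the log2 scale were mostly blue (93 higher and 14 lower).

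The direction of change differed along the range of CPM, which reflects gene length as well as RNA level. Among the 1064 genes with a mean under 1 CPM over the 16 libraries, 345 rose and 67 fell, so that 83.7% of the changes were increases. The filter on low counts was set over all 24 libraries, and 454 genes passed it only with the HFD libraries included, of which 193 rose and 20 fell. With the filter and fit on the 16 libraries alone, 192 genes rose and 61 fell under 1 CPM (75.9% increases), and without the filter 567 rose and 263 fell (68.3%). Among the 3998 genes with 1 to 10 CPM, 1158 rose and 508 fell. The balance was reversed in the upper bands, with 1215 genes higher and 1654 genes lower among the 6599 genes with 10 to 100 CPM. Of the 1473 genes with 100 CPM or more, 207 rose and 535 fell, and the median log2 fold change of this band was −0.16, compared with 0.39 in the lowest band. The directions within bands hold for TMM scaling. Library totals moved the median log2 fold change of all genes tested from −0.01 to 0.21, and the bands were not repeated with them. The share of genes that changed was 38.7% in the lowest band and 50.4% in the highest. The standard error of the fold change was largest at low counts, with a median of 0.32 under 1 CPM and 0.11 at 100 CPM or more.

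**Figure D2:**
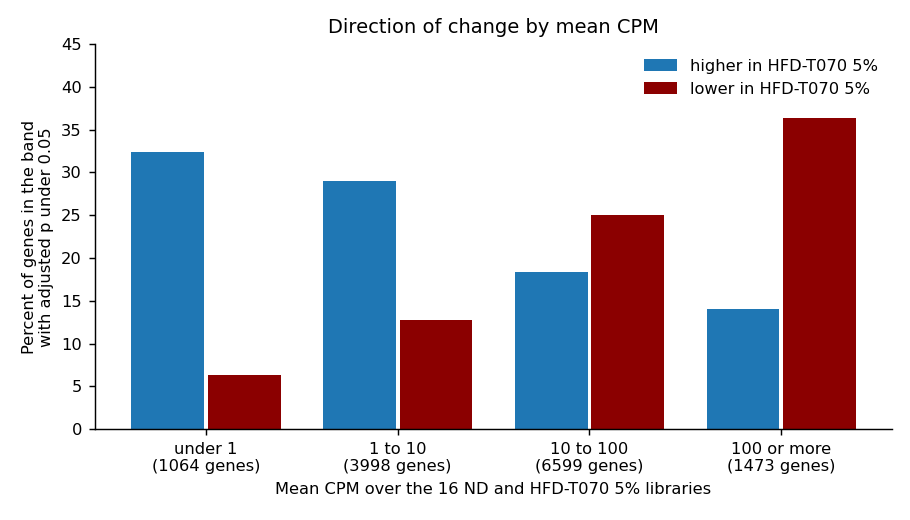
Bars give the percent of the genes in each band of mean CPM that were higher (blue) or lower (red) in HFD-T070 5% than in ND at an adjusted p-value below 0.05, with TMM scaling. The blue bars fall and the red bars rise from the band under 1 CPM (345 higher, 67 lower) to the band of 100 CPM or more (207 higher, 535 lower).

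The most counted genes took a smaller part of each HFD-T070 5% library. The 10 most counted genes of a library held 22.0 to 25.3% of the counts of ND libraries (median 23.9%) but 19.4 to 21.5% of those of HFD-T070 5% libraries (median 20.5%). The libraries did not overlap, and the means differed by 3.19 percentage points (23.7 ± 1.07% and 20.6 ± 0.792%, SD, n = 8 each, two-sided exact permutation test, p = 1.55e-04, which is the lowest value possible at this size, adjusted p = 1.94e-04 over 5 measures). Together, 16 genes filled these places in the 16 libraries, and 7 of them fell, 1 rose and 8 did not pass the test. The share that changed was near that of all genes with 100 CPM or more (50.4%). The 100 most counted genes held 46.3 ± 0.956% of the counts in the ND group and 41.6 ± 1.22% in the HFD-T070 5% group. The number of tested genes with at least 1 CPM was 11624 to 11962 in the ND libraries and 12043 to 12309 in the HFD-T070 5% libraries. Over all 22283 genes of the table, which no filter chose, the numbers were 11644 to 11976 and 12045 to 12314, again without overlap (exact two-sided permutation test, p = 1.55e-04). The HFD group differed from ND in the same direction by its medians, and by more. Its 10 most counted genes held 16.49 to 27.65% of the counts (median 18.16%). At least 1 CPM was reached by 11778 to 12415 tested genes (median 12340). These HFD values were not tested. The TMM factors, by which library sizes were scaled, moved with the groups, from 0.834 to 0.941 in ND and from 0.979 to 1.11 in HFD-T070 5%. Beyond the comparison with library totals and DESeq2 size factors given above, their part in the counts of changed genes was not tested.

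**Figure D3:**
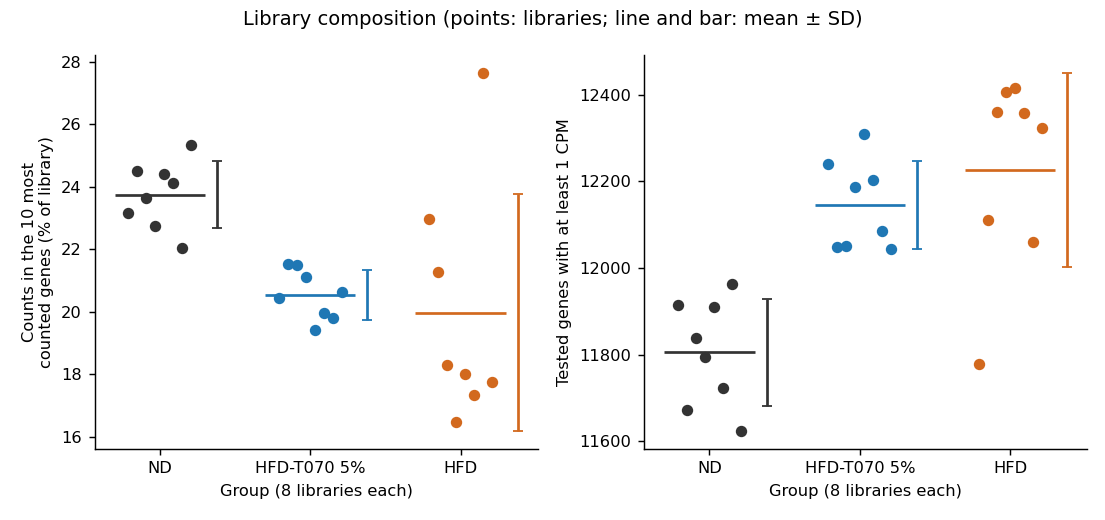
Points are libraries, horizontal lines are group means and bars are ± 1 SD (n = 8), for the percent of counts in the 10 most counted genes (left) and the number of tested genes with at least 1 CPM (right); neither axis starts at 0. All HFD-T070 5% libraries lay at or below 21.5% on the left and at or above 12043 genes on the right, whereas all ND libraries lay at or above 22.0% and at or below 11962 genes. The HFD libraries had medians of 18.16% and 12340 genes, and ranged from 16.49 to 27.65% and from 11778 to 12415 genes.

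The spread among livers was also compared, without a test. The median standard deviation of log2 CPM within the group was 0.17 in HFD-T070 5%, 0.21 in ND and 0.33 in HFD (0.29 without HFD replicate 1). HFD replicate 7, the library with the smallest total, was the highest of its group at 27.3% of the genes tested and the lowest at 29.4%. The spread of the HFD group was not computed without it. At 33.2% of the genes tested, the standard deviation was larger for HFD-T070 5% than for ND. HFD-T070 5% replicate 5 was the highest library of its group at 16.3% of all genes tested and the lowest at 16%. Without it, 5129 genes changed compared with ND.

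Few genes were counted in a single group. No count was found in any ND library for 6 genes that had at least 1 count in every HFD-T070 5% library, and 2 of these had at least 3 counts in every one. The reverse was found for 3 genes, none of which had 3 counts in every ND library. A library without a count can still hold a transcript at a level that gives up to 3 counts, and this limit covers counting error only.

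Of the genes with an adjusted p-value under 0.05, a mean of at least 1 CPM and no overlap between the groups, the largest rise was that of ENSMAUG00000001825. It was counted at 0.0579 to 4.5 CPM in the ND libraries (median 0.307 CPM) and at 187.4 to 443.2 CPM in the HFD-T070 5% libraries (median 289.9 CPM). Every HFD-T070 5% library was far above every ND library, and the log2 fold change was 8.35 (with a standard error, SE, of 0.83, adjusted p = 3.33e-07), or 9.47 without ND replicate 4, the highest ND library. In the HFD group it was counted at 288.2 to 445.0 CPM without replicate 1, and at 0.209 CPM in HFD replicate 1. It did not pass the test between HFD-T070 5% and HFD (log2 fold change −0.12, SE 0.57, adjusted p = 0.925). The next largest rise was that of ENSMAUG00000016308, with 1 count in 1 ND library, none in the other ND libraries and 397 counts over the 8 HFD-T070 5% libraries, which ranged from 1.25 to 5.39 CPM. Scaled by library size, the summed counts differed 334-fold, with an exact 95% counting interval from 59.6 to 13220. The fitted log2 fold change was 7.46 (SE 1.07, adjusted p = 2.07e-05 in edgeR, and 1.33e-04 without ND replicate 1, which held the count). Between HFD-T070 5% and HFD the log2 fold change of ENSMAUG00000016308 was −0.88, which did not pass the test (adjusted p = 0.224). Without HFD replicate 1 it was −1.07 and passed (adjusted p = 0.0159). The files do not pair either identifier with a symbol.

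The largest fall was that of ENSMAUG00000010999. It ranged from 0.179 to 10.2 CPM in the ND libraries (median 1.86 CPM), whereas 3 counts were found in the whole HFD-T070 5% group, 1 in each of 3 libraries. The summed counts were 142-fold higher in ND, with an exact 95% counting interval from 48.2 to 691 (adjusted p = 3.50e-06 in edgeR). ND replicate 1 held 151 of the 358 ND counts, and without it the fitted log2 fold change was −6.15 instead of −6.77 (adjusted p = 8.35e-06). This gene passed the filter on low counts only with the HFD libraries included. The HFD libraries held 0.178 to 1.01 CPM without replicate 1 and 2.30 CPM in HFD replicate 1, so that each HFD library lay above each HFD-T070 5% library, and this gene was also lower in HFD-T070 5% than in HFD (adjusted p = 0.0199, and 0.0109 without HFD replicate 1). The second fall was that of ENSMAUG00000020619, with 1.37 to 101 CPM in ND (median 4.09 CPM) and 0 to 1.30 CPM in HFD-T070 5% (median 0.152 CPM). Its log2 fold change was −5.47 (SE 1.04, adjusted p = 2.23e-04) and depended on ND replicate 8, which held the 101 CPM. Without that library it was −3.51 (adjusted p = 5.29e-04), and without HFD-T070 5% replicate 6 it was −6.07. In the HFD group the log2 fold change of ENSMAUG00000020619 against ND was −5.10, and −7.22 without HFD replicate 1. It did not pass the test between HFD-T070 5% and HFD (−0.36, adjusted p = 0.907, and 1.76, adjusted p = 0.5275, without HFD replicate 1).

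The study lists 18 metabolic genes, picked by the difference of the high-fat groups from each other. That choice used the HFD-T070 5% and the HFD libraries, so the list is no independent evidence of a direction of either group against ND. Its counts for HFD against ND and its values for HFD-T070 5% against HFD are a description. All 18 were tested. Compared with ND, 10 were higher and 4 were lower in HFD-T070 5%, and 4 did not pass the test, which is 77.8% called against 43.3% of all genes. The median log2 fold change was 0.83 over the list and −0.01 over all genes tested. The libraries of both groups did not overlap at 8 of the 18 genes and at 2387 of all genes tested (18.2%). Of the 18, Mboat1, Mboat2, Asns, Alpl and Atp6v0d2 passed the filter on low counts only with the HFD libraries included. With the filter and fit on the 16 ND and HFD-T070 5% libraries alone, these 5 were not tested and 12 of the other 13 were called, where 52.7% of all genes were. In the HFD group compared with ND, 14 of the 18 were called (53.6% of all genes) and 13 were higher (27.3% of all genes) and the median log2 fold change was 2.32. Below, 16 of them are described by symbol and 1 by its identifier, by role. All comparisons with ND share the 8 ND libraries, so the values of HFD-T070 5% and HFD against ND are set side by side and not correlated.

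**Figure D4:**
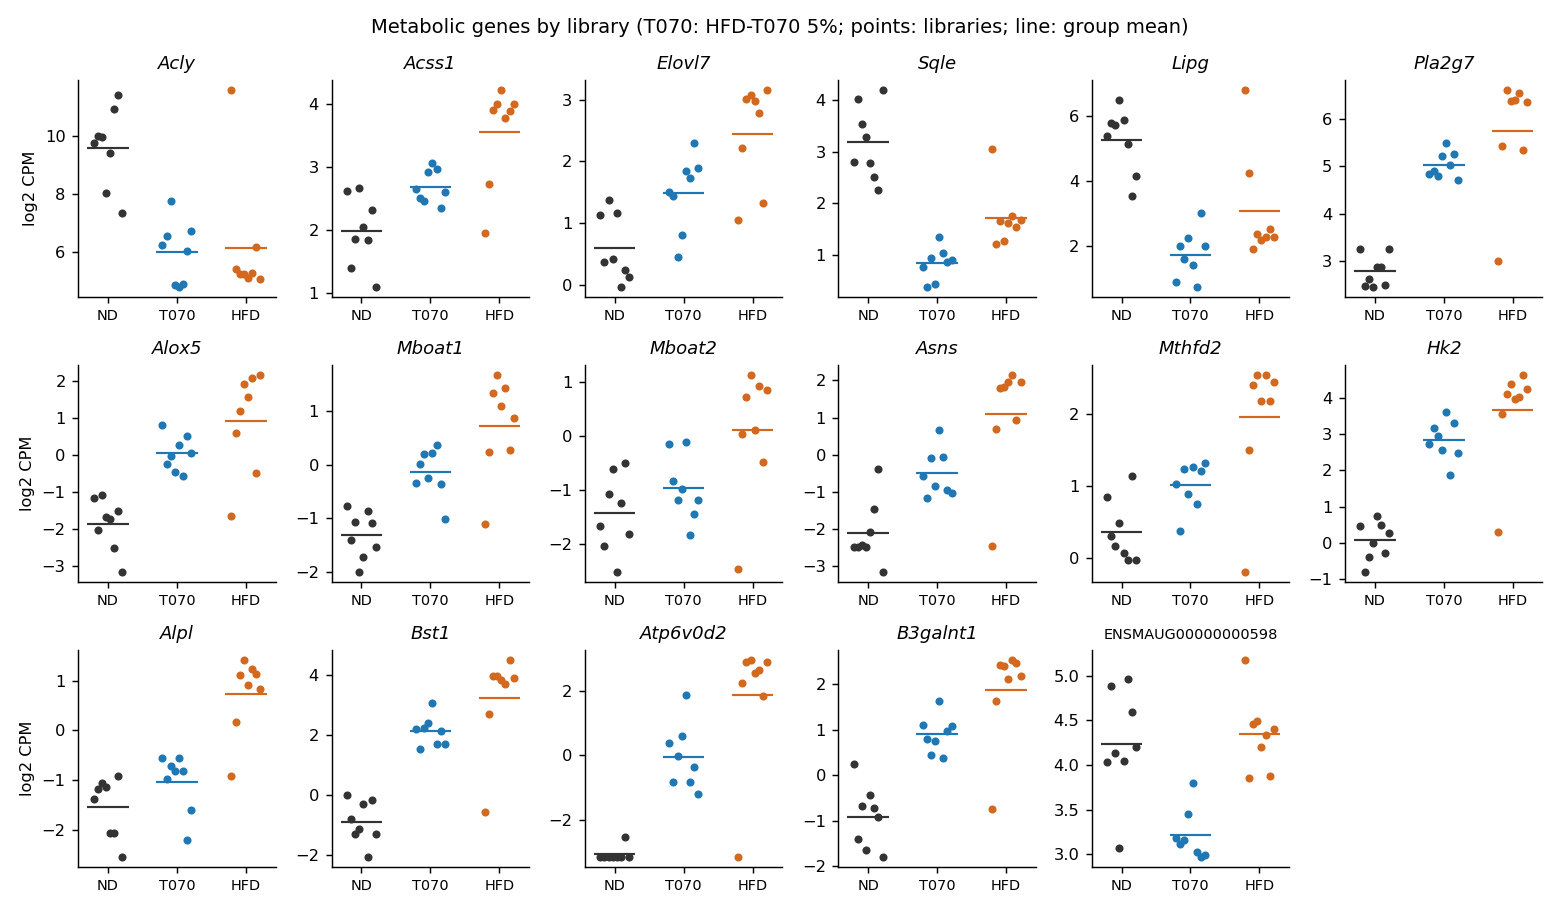
Each panel shows 1 gene, with log2 CPM (prior count 2) on the vertical axis, points for the 8 libraries of each group and lines for group means. Acly, Lipg and Sqle lay lower in HFD-T070 5% (T070) than in ND, and Hk2, Bst1, Pla2g7, Alox5, B3galnt1 and Atp6v0d2 lay higher without overlap.

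Among 4 genes of acetyl-CoA supply, fatty acid elongation and sterol synthesis, 2 fell and 2 rose. Sqle (ENSMAUG00000004073) encodes squalene monooxygenase, a rate-limiting enzyme of cholesterol synthesis. It was counted at 4.65 to 18.3 CPM in the ND libraries (median 8.27 CPM) and at 1.18 to 2.43 CPM in the HFD-T070 5% libraries (median 1.71 CPM). All 8 HFD-T070 5% libraries lay below all 8 ND libraries. The means were 9.96 ± 5.06 CPM and 1.70 ± 0.394 CPM (SD, n = 8 each), a 5.82-fold decrease (log2 fold change −2.54, SE 0.30, adjusted p = 1.81e-06). In the HFD group the log2 fold change against ND was −1.54, and −1.80 without HFD replicate 1. The difference between HFD-T070 5% and HFD did not pass the test (−1.0, adjusted p = 0.0565, and −0.72, adjusted p = 0.0598, without HFD replicate 1).

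Acly (ENSMAUG00000000465) encodes ATP-citrate synthase, which makes the cytosolic acetyl-CoA used for fatty acids and sterols. It varied widely in the ND group, from 163.9 to 2706 CPM (median 931.5 CPM), and was counted at 28.1 to 216.8 CPM in the HFD-T070 5% group (median 70.7 CPM). The highest HFD-T070 5% library, replicate 3, was the one that reached into the ND range, and the other 7 lay below all ND libraries. The log2 fold change was −3.74 (SE 0.99, adjusted p = 0.00391), a 13.4-fold decrease. HFD replicate 1 held 3108 CPM, above every ND library, and the other HFD libraries held 33.4 to 72.3 CPM. The log2 fold change of HFD against ND was −1.35 over 8 HFD libraries, which did not pass the test (adjusted p = 0.213), and −4.65 without HFD replicate 1 (adjusted p = 1.46e-07). Between HFD-T070 5% and HFD it was −2.39 (adjusted p = 0.124) with HFD replicate 1 and 0.92 (adjusted p = 0.179) without it, and neither passed the test.

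Acss1 (ENSMAUG00000016079), the mitochondrial acetyl-CoA synthetase, and Elovl7 (ENSMAUG00000007951), an elongase of very long chain fatty acids, rose by less than the others. Acss1 was counted at 2.02 to 6.20 CPM in ND (median 3.75 CPM) and at 4.96 to 8.20 CPM in HFD-T070 5% (median 6.05 CPM). The ranges overlapped, with 3 HFD-T070 5% libraries above the ND range, and the log2 fold change of 0.66 (SE 0.26, adjusted p = 0.0435) lay close to the threshold. It no longer passed without HFD-T070 5% replicate 1, 4, 5, 6 or 8, or without ND replicate 2, 3, 5, 6 or 8 (adjusted p = 0.0520 to 0.0821). Elovl7 was counted at 0.869 to 2.47 CPM in ND (median 1.21 CPM) and at 1.26 to 4.81 CPM in HFD-T070 5% (median 2.97 CPM), with 6 of 8 libraries above the ND range and a log2 fold change of 0.97 (SE 0.33, adjusted p = 0.0190). Against HFD, both were lower in HFD-T070 5%, Acss1 by a log2 fold change of −1.02 (adjusted p = 0.0239) and Elovl7 by −1.07 (adjusted p = 0.0337).

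The lipases and lipid mediator enzymes moved in both directions. Lipg (ENSMAUG00000000351) encodes endothelial lipase, which acts on the phospholipids of HDL. It was counted at 11.6 to 90.9 CPM in ND (median 47.4 CPM) and at 1.58 to 8.03 CPM in HFD-T070 5% (median 3.42 CPM), without overlap. The log2 fold change was −3.63 (SE 0.70, adjusted p = 2.30e-04), a 12.4-fold decrease. HFD replicate 1 held 112.7 CPM and the other HFD libraries 3.70 to 18.9 CPM. HFD against ND gave −1.20 (adjusted p = 0.105) and, without HFD replicate 1, −2.73 (adjusted p = 5.17e-06). The difference between HFD-T070 5% and HFD passed the test with HFD replicate 1 (−2.43, adjusted p = 0.0403) and not without it (−0.89, adjusted p = 0.142).

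Pla2g7 (ENSMAUG00000019624) encodes platelet-activating factor acetylhydrolase, an enzyme secreted largely by macrophages. It was counted at 5.38 to 9.49 CPM in ND (median 6.62 CPM) and at 26.1 to 44.7 CPM in HFD-T070 5% (median 31.1 CPM). Every HFD-T070 5% library lay above every ND library, and the increase was 4.74-fold (log2 fold change 2.24, SE 0.31, adjusted p = 8.70e-06). The HFD libraries other than replicate 1 reached 40.4 to 98.2 CPM, and HFD replicate 1 held 7.87 CPM. Pla2g7 was lower in HFD-T070 5% than in HFD by a log2 fold change of −1.0 (adjusted p = 0.0451), or −1.18 without HFD replicate 1 (adjusted p = 6.93e-05). Alox5 (ENSMAUG00000018983) encodes 5-lipoxygenase, the first enzyme of leukotriene synthesis and a gene of leukocytes. It had 23 counts over the 8 ND libraries (0 to 0.364 CPM) and 145 over the 8 HFD-T070 5% libraries (0.564 to 1.64 CPM), without overlap, with a log2 fold change of 2.35 (SE 0.56, adjusted p = 0.00165). Against HFD, Alox5 was lower in HFD-T070 5% (−1.37, adjusted p = 0.0319).

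The lysophospholipid acyltransferases, which return fatty acids to membrane phospholipids, gave 1 call. Mboat1 (ENSMAUG00000017913) rose from 0.306 ± 0.120 CPM in ND to 0.829 ± 0.263 CPM in HFD-T070 5% (SD, n = 8 each), with a log2 fold change of 1.42 (SE 0.39, adjusted p = 0.00473) and 7 of 8 libraries above the ND range. Mboat2 (ENSMAUG00000005505) had 37 and 66 counts over the 8 libraries of each group, from 0.0627 to 0.596 CPM and from 0.169 to 0.811 CPM. Its ranges overlapped, and the log2 fold change of 0.57 (95% interval −0.46 to 1.59, adjusted p = 0.368) did not pass the test. Compared with HFD, both were lower in HFD-T070 5%, by a log2 fold change of −1.16 for Mboat1 (adjusted p = 0.0240) and −1.49 for Mboat2 (adjusted p = 0.0272).

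Asns (ENSMAUG00000004155) encodes asparagine synthetase, and Mthfd2 (ENSMAUG00000009261) a mitochondrial enzyme of the folate one-carbon pathway. Both are known targets of the amino acid stress response. Asns had 21 counts over the ND libraries (0 to 0.655 CPM, median 0.0704 CPM) and 100 over the HFD-T070 5% libraries (0.338 to 1.48 CPM, median 0.508 CPM), and 3 HFD-T070 5% libraries lay above the ND range. Its log2 fold change was 1.95 (SE 0.65, adjusted p = 0.0172). It rested on single libraries, at 2.78 (adjusted p = 0.00210) without ND replicate 7, the highest of its group, and at 1.65 (adjusted p = 0.0515), no longer past the threshold, without HFD-T070 5% replicate 5. Mthfd2 was counted at 0.868 to 2.08 CPM in ND (median 1.07 CPM) and at 1.18 to 2.39 CPM in HFD-T070 5% (median 2.06 CPM). All 8 HFD-T070 5% libraries lay above the ND median, and the log2 fold change was 0.65 (95% interval 0.06 to 1.25), which did not pass after adjustment (adjusted p = 0.0692). It passed without HFD replicate 1 (adjusted p = 0.00939), without ND replicate 7 (0.0292) and without HFD-T070 5% replicate 2 (0.0439). Against HFD, Asns was lower in HFD-T070 5% by −2.07 (adjusted p = 0.0134) and Mthfd2 by −1.15 (adjusted p = 0.0180) on the log2 scale.

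Hk2 (ENSMAUG00000020920) encodes hexokinase-2, a glucose-phosphorylating enzyme that is scarce in healthy adult hepatocytes. It was counted at 0.462 to 1.57 CPM in ND (median 0.993 CPM) and at 3.55 to 12.2 CPM in HFD-T070 5% (median 7.05 CPM). All HFD-T070 5% libraries lay above all ND libraries, and the increase was 7.45-fold (log2 fold change 2.90, SE 0.40, adjusted p = 8.54e-06). The HFD libraries other than replicate 1 held 11.6 to 24.8 CPM, and HFD replicate 1 held 1.11 CPM. The difference between HFD-T070 5% and HFD was −1.07 (adjusted p = 0.0547), and −1.25 without HFD replicate 1, where it passed the test (adjusted p = 1.35e-04).

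Among the ectoenzymes and the proton pump subunit, 2 of 3 genes rose. Bst1 (ENSMAUG00000009435) encodes a surface ADP-ribosyl cyclase of myeloid and stromal cells. It rose from 0.124 to 0.876 CPM in ND (median 0.401 CPM) to 2.76 to 8.35 CPM in HFD-T070 5% (median 4.38 CPM), without overlap, a 9.23-fold increase (log2 fold change 3.21, SE 0.49, adjusted p = 2.51e-05). Atp6v0d2 (ENSMAUG00000001919) encodes a V-type proton ATPase subunit found mainly in osteoclasts and some macrophages. It had 1 count in 1 ND library and 171 counts over the HFD-T070 5% libraries, all of which had some, from 0.326 to 3.53 CPM. Scaled by library size the summed counts differed 144-fold, with an exact 95% counting interval from 25.5 to 5713. The fitted log2 fold change was 6.24 (SE 1.275, adjusted p = 5.75e-04 in edgeR, and 0.00202 without ND replicate 7, which held the count). The highest value was that of HFD-T070 5% replicate 5, and the others held at most 1.41 CPM. Against HFD, Bst1 (−1.51, adjusted p = 0.0232) and Atp6v0d2 (−2.24, adjusted p = 0.0177) were lower in HFD-T070 5%.

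Alpl (ENSMAUG00000008803), the tissue-nonspecific alkaline phosphatase, had 31 counts in ND and 60 in HFD-T070 5%, at 0.0579 to 0.417 CPM and 0.102 to 0.572 CPM. The ranges overlapped and the log2 fold change of 0.68 (95% interval −0.20 to 1.57, adjusted p = 0.201) did not pass the test. In the HFD group against ND it was 2.77 (adjusted p = 6.71e-07), and the difference between HFD-T070 5% and HFD was −2.09 (adjusted p = 0.00305), or −2.23 without HFD replicate 1 (adjusted p = 5.79e-06). Of the 3 named genes that did not pass against ND (Mboat2, Mthfd2 and Alpl), each was higher in HFD than in ND, and each was lower in HFD-T070 5% than in HFD, the contrast on which the list was chosen. That choice used the HFD libraries too, and Mboat2 and Alpl passed the filter on low counts only with them included. Neither direction is therefore independent evidence.

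B3galnt1 (ENSMAUG00000001135), a glycosyltransferase of globoside synthesis, rose from 0.174 to 1.08 CPM in ND (median 0.457 CPM) to 1.18 to 3.00 CPM in HFD-T070 5% (median 1.74 CPM), without overlap (log2 fold change 1.95, SE 0.39, adjusted p = 3.26e-04). For HFD against ND the log2 fold change of B3galnt1 was 3.16 (adjusted p = 2.5e-07). It was lower in HFD-T070 5% than in HFD (−1.21, adjusted p = 0.02395). ENSMAUG00000000598, which has no symbol, was counted at 8.31 to 31.0 CPM in ND (median 17.9 CPM) and at 7.73 to 13.8 CPM in HFD-T070 5% (median 8.71 CPM). The lowest ND library lay within the HFD-T070 5% range, and the next lowest held 16.2 CPM, above all HFD-T070 5% libraries. The log2 fold change was −1.11 (SE 0.21, adjusted p = 2.42e-04). In the HFD group it was 0.07 against ND (SE 0.21, adjusted p = 0.795), and HFD-T070 5% was lower than HFD by −1.18 (adjusted p = 0.0112), or −1.04 without HFD replicate 1 (adjusted p = 6.69e-04).

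**Figure D5:**
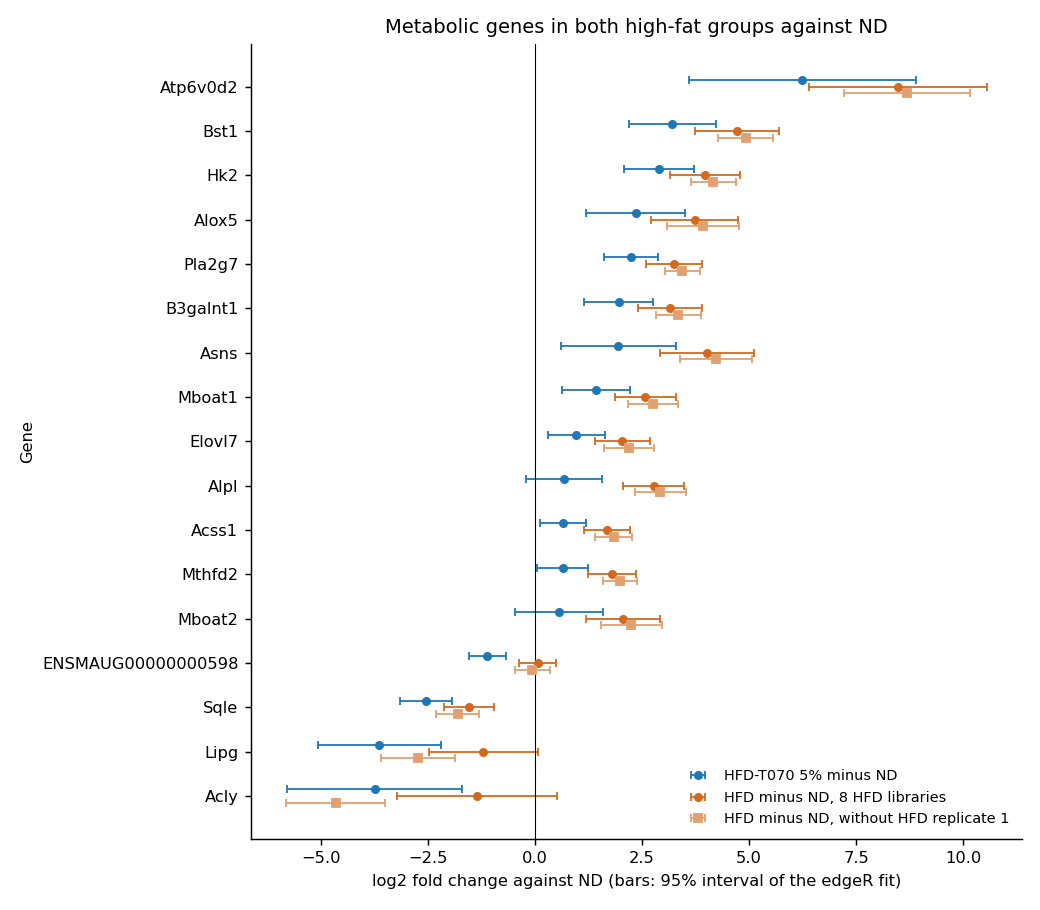
Points give the log2 fold change against ND and bars its 95% interval in the edgeR fit, for HFD-T070 5% (blue), HFD (dark orange) and HFD without replicate 1 (light orange squares), sorted by the HFD-T070 5% value. The blue intervals of Alpl and Mboat2 reach across 0, and the orange points of Acly and Lipg shift to the left without HFD replicate 1 (from −1.35 to −4.65 and from −1.20 to −2.73).

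Within the HFD-T070 5% group, replicate 5 was the highest library at 11 of the 17 named genes (16.3% of all genes tested). Replicate 6 was the lowest at 5 of the 17 (13.7% of all genes tested). The 17 genes are not independent of each other. Replicate 5 also had the highest TMM factor of its group (1.11) and the smallest share of counts in its 10 most counted genes (19.4%), and their part in its values was not tested. Without replicate 5, 12 of the 18 listed genes passed against ND, where 38.9% of all genes tested did, with Acss1 (adjusted p = 0.0821) and Asns (0.0515) no longer among them.

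Over all genes, each comparison gave the following sizes. The median absolute log2 fold change was 0.26 for HFD-T070 5% against ND and 0.31 for HFD against ND, with 5689 and 7044 genes called. Both use the same ND libraries. The difference between the high-fat groups was tested directly by HFD-T070 5% against HFD, in which 219 genes were higher and 405 genes were lower, or 4.75% of those tested, with a median absolute log2 fold change of 0.145. Without HFD replicate 1, this comparison called 2935 of 13218 genes (22.2%), HFD against ND called 7673 genes (58.0%) and HFD-T070 5% against ND called 6112 genes.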

How the data were processed

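The members of the comparison and the gene lists were chosen with earlier results of these data known. Ribosomal RNA was depleted and directional libraries were made. The authors trimmed single-end reads with Trimmomatic 0.36, mapped them to MesAur1 and counted them per gene with STAR 2.7.10. The deposited values are whole-number counts, neither normalized nor filtered. The annotation release and strand setting are not given in the sources used here, so overlapping and related genes could share reads. Columns were matched to libraries by the labels.

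In R 4.3.3, edgeR 4.0.16 was used with filterByExpr (minimum count 10, minimum total 15), TMM, glmQLFit (legacy off) and glmQLFTest on 3 groups in 1 fit. Genes with an adjusted p-value under 0.05 were called. Standard errors (SE) were derived from the log2 fold change and its F statistic. Total counts were 15289624 to 20740364 per library in the compared groups, so genes with few counts are measured least precisely, and intervals from counts cover counting error only. Libraries of a group differed by more than sampling noise (chi-square per degree of freedom at least 11). Composition was compared by exact permutation over 12870 splits.

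Genes named were those of the study's list of 18 and the 2 largest rises and 2 largest falls with an adjusted p-value under 0.05, a mean of at least 1 CPM and no overlap. The RefSeq gene table matched 0 identifiers, so pathway and cell marker lists were not analysed here. A gene of the list is not reported here by name. Alternatives were DESeq2 1.42.0 size factors and Wald test, voom of limma 3.58.1, library totals, other filters, the 16 libraries alone, a replicate block, robust empirical Bayes, a fold minimum and each library left out. The dispersions of edgeR 3 and the filter checks by CPM band and over all genes were added after the data were seen.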

Additional observations from a re-analysis of the deposited data

Results flagged for a closer look

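In 52 groups of 8 values (5 measures of the libraries and log2 CPM of the 21 genes named, in ND and in HFD-T070 5%), extreme libraries were sought with Dixon's criterion at 95%. By chance alone 1 group in 20 would hold one. There were 3, near the number that this rate gives over 52 groups, and all were in ND. ENSMAUG00000020619 stood at a log2 CPM of 6.66 in ND replicate 8, where the next library stood at 3.35. Atp6v0d2 stood at −2.53 in ND replicate 7 and ENSMAUG00000016308 at −2.47 in ND replicate 1, each from 1 count where the other ND libraries had none (−3.14). Where all other libraries tie, the criterion marks any value that differs, so the rate of 1 in 20 does not hold for these genes in ND. No HFD-T070 5% library was singled out at any of these measures.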

How the results depend on the processing

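The number of genes changed in HFD-T070 5% compared with ND was 5129 to 6549 when single libraries were omitted, with 2671 to 3502 higher and 2362 to 3047 lower. It was highest without HFD replicate 7 and lowest without HFD-T070 5% replicate 5. A minimum absolute log2 fold change of 1 left 1397 genes, 1125 higher and 272 lower. Library totals gave 5146 higher and 907 lower, by construction without the correction for composition, and 3831 of these 6053 genes were also called with TMM. The other alternatives gave 4805 (at least 10 counts in every library) to 6680 genes (ND and HFD-T070 5% libraries alone). Of the 18 listed genes, 7 of the 9 tested were called with at least 10 counts in every library (42.4% of all genes), 12 of the 13 tested with the 16 libraries alone (52.7%), 11 with voom (42.9%) and 12 to 15 without single libraries (38.9 to 49.6%). The difference in the share of the 10 most counted genes was −3.44 to −2.96 percentage points without single libraries and −4.67 for 100 genes. With the replicate number as a block, 5541 genes were called, 2891 higher and 2650 lower, and 14 listed genes. The numbers did not pair the libraries, since deviations of same-numbered ND and HFD-T070 5% libraries correlated at −0.224 to 0.200, over 0.1 in 3 of 8 pairs, and 1 of 8 libraries correlated best with its own number. With voom, Acss1, Asns and Elovl7 did not pass (adjusted p = 0.0762, 0.0565 and 0.0579), and Mthfd2 passed with library totals (0.0347) and with the 16 libraries alone (0.00885), the cause of which was not tested. No named gene changed direction in an alternative that tested it, but 13 of 21 were not tested with at least 10 counts in every library and 6 with the 16 libraries alone. Genes with few counts limit the precision at this depth.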
